A study of Mus musculus with 4 samples.

Results

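The genes described here are 9 transcription factor genes of the Sox and nuclear factor I (NFI) families, *Sox2*, *Sox4*, *Sox8*, *Sox9*, *Sox11*, *Nfia*, *Nfib*, *Nfic* and *Nfix*, chosen by name from the 24322 genes with a value in each library. Their transcripts were measured by RNA-seq after FACS of mTFP-positive retinal cells, in 4 libraries that each came from 1 mouse. The 2 control mice carried 1 floxed and 1 wild-type *Rax* allele (Raxflox/WT), and the 2 *Rax* iCKO mice carried 2 floxed alleles (Raxflox/flox). Both genotypes also carried the Rlbp1-CreERT2 and R26-CAG-LoxP-mTFP1 transgenes, and the labels give 129S6 as the strain. All mice were treated with tamoxifen at postnatal day 4 (P4), with harvest at P14. The labels name the treatment, and its days come from the methods of the paper. The question asked of these genes is whether transcripts of factors linked to the formation and upkeep of Müller glial cells differ when the homeobox gene *Rax* is deleted in such cells.

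The Cre recombinase of these mice is driven by a fragment of the *Rlbp1* promoter, which is active in Müller glial cells, and the paper also describes recombination in the pigment epithelium. Mice of either sex were used. Control 1 was mouse 7984, control 2 was mouse 3911, *Rax* iCKO 1 was mouse 7983 and *Rax* iCKO 2 was mouse 3914, and values for the 4 libraries are given below in that order. The mouse numbers fall into 2 runs, which the labels do not call batches: run A holds control 1 and *Rax* iCKO 1, and run B holds control 2 and *Rax* iCKO 2. Across the 12363 genes with a mean of at least 1 FPKM (fragments scaled to the length of the transcript and to the mapped reads of the library), Pearson's r was 0.970 between the libraries of each run, whereas it was 0.952 between the controls and 0.955 between the *Rax* iCKO libraries. The depth, estimated from the smallest steps between low FPKM values, was between 9270000 and 12720000 mapped reads per library. *Xist*, the X-inactivation transcript, which was looked at after its values were known, was at 24.5, 21.2, 0.0119 and 0.00605 FPKM, and 4 Y-linked genes were above 0 in *Rax* iCKO 1 alone, so genotype and the level of *Xist* cannot be told apart in these 4 mice. *Rax* itself was at 189, 181, 111 and 98.4 FPKM, a difference of -0.82 on the log2(FPKM + 1) scale (SE 0.21, 95% interval -1.34 to -0.30, adjusted p = 0.9999 by limma), and the order of the libraries followed the genotype labels.

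Sox proteins bind DNA through a high-mobility-group domain. *Sox2* (a SoxB1 gene) keeps neural progenitor cells and mature Müller glial cells in their state, *Sox8* and *Sox9* (SoxE genes) act in glial specification, and *Sox4* and *Sox11* (SoxC genes) act in newborn neurons and late retinal progenitors. NFI proteins bind DNA as dimers at a palindromic site, and *Nfia*, *Nfib* and *Nfix* are known to act when late retinal progenitors leave the cell cycle and form Müller glial and bipolar cells. In the mature retina *Sox2*, *Sox8*, *Sox9* and NFI transcripts are known from Müller glial cells, and some of these genes are also active in particular amacrine cells.

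The sequences below are shown because *Rax* encodes a paired-type homeodomain protein, and TAATT is the core of the sites such proteins bind. RefSeq promoter entries (GRCm38.p6) were available for 10 starts of *Sox2*, *Sox4*, *Sox8*, *Sox11*, *Nfia*, *Nfic* and *Nfix*. *Nfib* and *Sox9* had no entry. TAATT, searched on both strands, occurred in the 250 bases before the start in 3 of these 10 promoters (30.0%), against 8223 of 32851 promoters (25%) of the same length. The 3 promoters were that of *Nfia* and 2 of the 4 of *Nfix*. In both *Nfix* windows the matches on the opposite strands overlap each other. The capitals mark TAATT or its reverse complement, and each window is written 5′ to 3′ on the strand of the gene.
Nfia: gatgaagcccTAATTttaaccacct
Nfix upper start: tccttagcatTAATTAactcaagttc
Nfix lower start: tccttaaaaaAATTAATTtccccctctg
The *Nfia* window is at chr4:97581711-97581735 (plus strand), inside the span but in no exon of *E130114P18Rik*, a gene on the opposite strand. The RefSeq start used here is far upstream of the span that GENCODE vM21 draws for *Nfia* at chr4:97772734-98118874, so the window is not next to the gene as annotated there. The *Nfix* windows, for the starts higher and lower in coordinate, are at chr8:84780107-84780132 and chr8:84773569-84773596 (minus strand), the former between exons of *Nfix* as GENCODE vM21 draws them and the latter in an exon of *Nfix*. The palindromic site of NFI dimers, TTGGC and GCCAA with any 5 bases between them, was found in 12 of the 32851 promoters (0.0365%) and in 0 of the 10. These matches are letters only, and no binding of RAX was measured in these libraries.

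All 9 genes had transcripts in the sorted cells, and FPKM, which are divided by transcript length, allow their levels to be set beside each other. *Sox8* was the highest with a mean of 70.0 FPKM over the 4 libraries (41.6 to 111), above 87.2% of the 12363 genes. *Sox4* followed with a mean of 52.8 FPKM (45.6 to 58.1) and *Sox9* with 46.0 FPKM (33.0 to 58.7). These 3 ranges overlap, with *Sox8* above *Sox4* in 3 of 4 libraries and *Sox4* above *Sox9* in 3 of 4. Next came *Nfia* at a mean of 25.2 FPKM, *Nfix* at 18.8 FPKM, *Sox2* at 18.6 FPKM and *Nfib* at 17.6 FPKM. The ranges of these 4 overlap each with the next, and the whole range of *Sox9* lies above that of *Nfia*. *Nfic* was lower at 8.21 FPKM, above only 38.0% of the genes, and its range did not overlap that of *Nfib*. *Sox11*, at 0.233 FPKM, was below all the others in all 4 libraries and is the only one of the 9 that did not reach the mean of 1 FPKM required for the test. Summed over the 9 genes, the levels were 326, 212, 284 and 208 FPKM, so that both libraries of run A were above both of run B.

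**Figure D1:**
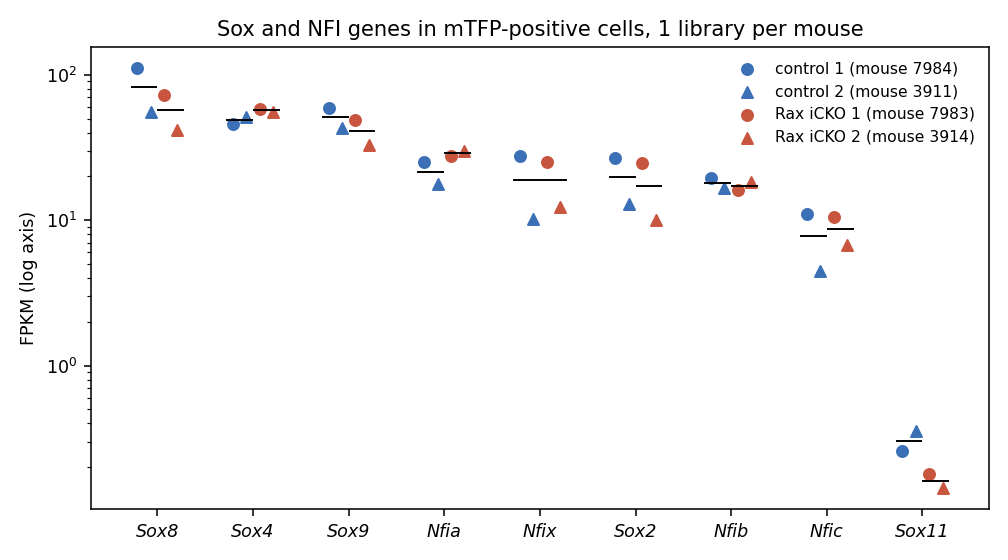
FPKM (log axis) of the 9 genes in each of the 4 libraries, ordered by mean level; blue marks controls, red *Rax* iCKO, circles run A, triangles run B, and bars the mean of each genotype (n = 2). *Sox8* is the highest at a mean of 70.0 FPKM, and for *Sox2*, *Sox8*, *Sox9*, *Nfic* and *Nfix* both circles sit above both triangles.

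In the comparison of genotypes, no member passed the test. limma on log2(FPKM + 1) gave an adjusted p of 0.9999 for each of the 8 genes tested, and none had an unadjusted p under 0.05. Over all 12363 genes 3 were called at an adjusted p under 0.05 (0.0243%), and 156 genes higher and 198 lower in *Rax* iCKO had an unadjusted p under 0.05. *Sox4* and *Nfia* were the 2 of 8 members with both *Rax* iCKO libraries above both controls, a pattern that 15.4% of all genes tested had. No tested member had both *Rax* iCKO libraries below both controls, which 14.1% of all genes did. The median difference over the 8 genes was 0.00 on the log2 scale, and over all genes tested it was -0.00. With 2 mice against 2, an exact two-sided permutation test of a single gene cannot give a p below 0.333. Leaving out 1 library turned the sign of the difference for *Sox2* (without control 1 or *Rax* iCKO 2), *Nfib* (without control 1 or *Rax* iCKO 1), *Nfic* and *Nfix* (without control 2 or *Rax* iCKO 1).

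*Sox2* (chr3:34650405-34652461, plus strand) encodes a factor that maintains neural progenitors and is kept in mature Müller glial cells. It was at 26.9, 12.8, 24.6 and 9.99 FPKM. The 2 libraries of run A were high and the 2 of run B low, and the genotypes overlapped. The mean was 19.9 ± 9.97 FPKM in control (SD, n = 2) and 17.3 ± 10.3 FPKM in *Rax* iCKO (SD, n = 2), and the difference was -0.23 (SE 0.50, 95% interval -1.45 to 0.99, log2 scale). Within each run the *Rax* iCKO library was the lower, by a difference of -0.13 in run A and -0.33 in run B. *Sox2* lies inside *Sox2ot*, a long noncoding gene on the same strand with which it shares no exon, and *Sox2ot* was at 5.21, 3.89, 7.34 and 6.08 FPKM, with both *Rax* iCKO values above the 2 controls. These *Sox2* levels rest on an estimated 173 to 636 reads per library.

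The SoxE genes were lower in *Rax* iCKO within each run, and the genotypes overlapped when the runs were pooled. *Sox8* (chr17:25565892-25570686, minus strand), a partner of *Sox9* in glial development, was at 111, 55.1, 72.6 and 41.6 FPKM. Control 1 stood highest and *Rax* iCKO 2 lowest, with control 2 below *Rax* iCKO 1. The mean was 82.9 ± 39.4 FPKM in control and 57.1 ± 22.0 FPKM in *Rax* iCKO (SD, n = 2 each), a ratio of 0.689, and the difference was -0.50 (SE 0.41, 95% interval -1.51 to 0.51, log2 scale). Within the runs it was -0.60 and -0.40. The size rested on single libraries: it was -0.0030 without control 1, -0.10 without *Rax* iCKO 2, -0.90 without *Rax* iCKO 1 and -0.997 without control 2. *2810468N07Rik*, an antisense gene that shares 329 exon bases with *Sox8*, was at 18.8, 16.2, 18.4 and 18.8 FPKM, and since the strand of the counting is not stated, reads in those bases cannot be assigned to either gene.

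*Sox9* (chr11:112782224-112787760, plus strand), which directs multipotent retinal progenitors towards Müller glia, was at 58.7, 43.3, 49.1 and 33.0 FPKM. The order of the libraries was the same as for *Sox8*. The mean was 51.0 ± 10.9 FPKM in control and 41.0 ± 11.4 FPKM in *Rax* iCKO (SD, n = 2 each), a ratio of 0.804, with a difference of -0.32 (SE 0.28, 95% interval -1.0 to 0.36, log2 scale). Within the runs it was -0.25 and -0.38. It was -0.10 without control 1 and -0.039 without *Rax* iCKO 2, against -0.53 without control 2 and -0.60 without *Rax* iCKO 1. The sum of *Sox8* and *Sox9* was 169.5, 98.4, 122 and 74.6 FPKM. *Sox8* exceeded *Sox9* in every library, by a ratio of 1.89, 1.27, 1.48 and 1.26, so the run A libraries had the larger excess. *Sox2*, *Sox8* and *Sox9* are the 3 of 8 members that were lower in *Rax* iCKO within both runs, which 31.7% of all genes tested were. Markers of Müller glia moved the same way: their sum over 12 genes was 22686 and 19176 FPKM in control and 15067 and 15695 FPKM in *Rax* iCKO, with 11 of the 12 lower in *Rax* iCKO on average, 0 of them called, and none of them near 0. Of these markers 6 were below both controls (14.1% of all genes tested) and 10 were lower within both runs (31.7%). Their part in the SoxE values was not tested, and in a bulk library fewer cells of a type and less RNA per cell cannot be told apart.

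The SoxC pair differed widely in level. *Sox4* (chr13:28948919-28953713, minus strand), a factor of late progenitors and newborn neurons, was at 45.6, 51.5, 58.1 and 55.9 FPKM. Both *Rax* iCKO libraries were above both controls, and the runs did not separate. The mean was 48.6 ± 4.19 FPKM in control and 57.0 ± 1.58 FPKM in *Rax* iCKO (SD, n = 2 each), a ratio of 1.17, with a difference of 0.23 (SE 0.20, 95% interval -0.26 to 0.72, log2 scale), or 0.14 without control 1. Its highest library was 1.27-fold above its lowest, and among the 9 genes *Nfib* alone was more even. A noncoding gene on the opposite strand, *Gm26735*, shares 2616 exon bases with it and has no value under that name in any library. Part of the reads given to *Sox4* may therefore belong to either strand.

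*Sox11* (chr12:27334264-27342574, minus strand) acts beside *Sox4* in the developing retina. It was at 0.257, 0.352, 0.180 and 0.143 FPKM, which corresponds to 27, 27, 14 and 11 reads in steps of 1 whole read. Both *Rax* iCKO libraries were below both controls. The 95% Poisson intervals were 17.8 to 39.3 reads for each control, 7.65 to 23.5 reads for *Rax* iCKO 1 and 5.49 to 19.7 reads for *Rax* iCKO 2. Summed, the controls had 54 reads and the *Rax* iCKO libraries 25, a depth-adjusted ratio of 0.543 (exact 95% interval 0.324 to 0.888), and these intervals cover counting error between these libraries, not the spread between mice. Without the filter on low values limma gave a difference of -0.17 (SE 0.10, 95% interval -0.42 to 0.09, adjusted p = 0.995), on a scale where 1 is added to each FPKM and low genes are compressed. *Sox4* and *Sox11* thus lay on opposite sides of the controls.

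Of the NFI genes, *Nfia* was higher in both *Rax* iCKO libraries and the other 3 overlapped between genotypes. *Nfia* (chr4:97772734-98118874, plus strand), which starts the gliogenic program in the developing nervous system, was at 25.3, 17.8, 27.8 and 30.0 FPKM. *Rax* iCKO 2 was the highest library and control 2 the lowest, and the 2 libraries of run A were close together. The mean was 21.6 ± 5.29 FPKM in control and 28.9 ± 1.61 FPKM in *Rax* iCKO (SD, n = 2 each), a ratio of 1.34, with a difference of 0.43 (SE 0.24, 95% interval -0.17 to 1.02, log2 scale), which became 0.18 without control 2 and 0.67 without control 1. The difference was 0.13 within run A and 0.72 within run B. *Sox4* and *Nfia* were the 2 of 8 members higher in *Rax* iCKO within both runs, against 30.7% of all genes tested. *E130114P18Rik*, on the opposite strand next to *Nfia* with 4 shared exon bases, was at 196, 212, 135 and 145 FPKM, with both *Rax* iCKO values below the 2 controls.

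*Nfib* (chr4:82290173-82705750, minus strand), which acts with *Nfia* in gliogenesis, was at 19.5, 16.5, 16.1 and 18.4 FPKM. It varied least among the 9 genes, 1.21-fold from lowest to highest, and neither genotype nor run separated its libraries. The mean was 18.0 ± 2.07 FPKM in control and 17.2 ± 1.62 FPKM in *Rax* iCKO (SD, n = 2 each), with a difference of -0.06 (SE 0.22, 95% interval -0.60 to 0.48, log2 scale), and the sign differed between the runs at -0.26 and 0.14.

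*Nfic* (chr10:81396186-81455635, minus strand), a broadly expressed member better known from tooth development, was at 11.0, 4.49, 10.6 and 6.78 FPKM. The difference was 0.23 (SE 0.43, 95% interval -0.82 to 1.27, log2 scale). *Nfix* (chr8:84699876-84800344, minus strand), a late-acting member in neural stem cells and progenitors, was at 27.7, 10.1, 25.2 and 12.4 FPKM. Its group means were nearly equal, 18.9 ± 12.4 FPKM in control and 18.8 ± 9.09 FPKM in *Rax* iCKO (SD, n = 2 each), while the difference was 0.07 (SE 0.52, 95% interval -1.21 to 1.34, log2 scale). For both genes the run A libraries were high and the run B libraries low, and the sign within the runs differed, at -0.05 and 0.50 for *Nfic* and at -0.13 and 0.26 for *Nfix*.

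The makeup of the NFI transcripts differed more between the runs than between the genotypes. Their sum was 83.4, 49.0, 79.6 and 67.6 FPKM. *Nfix* made up 33.2% of the sum in control 1 and 31.7% in *Rax* iCKO 1, but 20.7% in control 2 and 18.3% in *Rax* iCKO 2. *Nfia* made up 30.3%, 36.4%, 34.9% and 44.5%, a larger share in *Rax* iCKO than in control within each run but with overlap between the genotypes. *Nfib* made up 23.3%, 33.8%, 20.2% and 27.2%, and *Nfic* 13.2%, 9.17%, 13.3% and 10.04%.

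**Figure D2:**
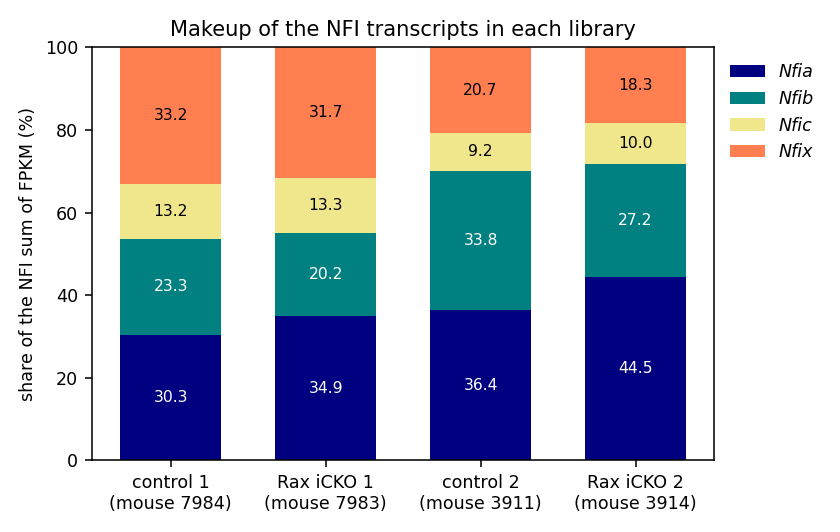
Share of each NFI gene in the summed FPKM of the 4 NFI genes (%), 1 bar per library, ordered by run. *Nfix* takes 33.2% and 31.7% in the run A libraries and 20.7% and 18.3% in those of run B, and *Nfia* takes 44.5% in *Rax* iCKO 2.

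**Figure D3:**
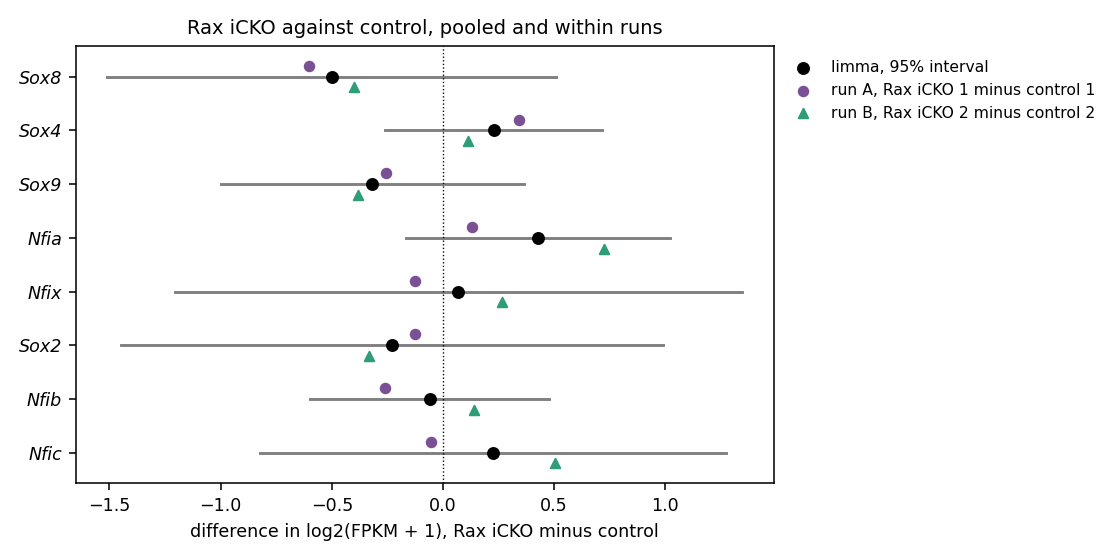
Difference between *Rax* iCKO and control in log2(FPKM + 1) for the 8 genes tested: black points are limma estimates over 2 mice per genotype, grey lines their 95% intervals, purple circles the difference within run A and green triangles that within run B. Each interval includes 0, and *Nfib*, *Nfic* and *Nfix* have opposite signs in the 2 runs.

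Several members differed between the runs of mouse numbers by more than they differed between the genotypes. *Sox2*, *Sox8*, *Sox9*, *Nfic* and *Nfix*, 5 of the 8 genes, had both run A libraries above both run B libraries, against 26.8% of all genes tested. None had the reverse, which 3594 of the 12363 genes tested had. The difference of run B from run A was -1.17 for *Nfix*, -1.12 for *Sox2*, -0.89 for *Sox8*, -0.85 for *Nfic* and -0.49 for *Sox9* on the log2 scale. It was -0.19 for *Nfia*, -0.02 for *Nfib* and 0.06 for *Sox4*. The median over the 8 genes was -0.67, and that over all genes tested was 0.01. The labels do not say what the runs share, and these values are a description with no test.

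Other features moved with the runs as well. Across 11909 genes with an annotated transcript, split into 5 equal classes, the class with the shortest transcripts had a median run difference of 0.27 and that with the longest -0.22, and the classes lowest and highest in GC content had medians of 0.12 and -0.12. *Nfix* and *Nfic*, with longest transcripts of 5476 and 6237 bases and a GC content of 57.1% and 57.4%, fall in the top class by both measures. *Nfia* and *Nfib*, of 9526 and 9116 bases but a GC content of 42.7% and 43.3%, fall in the longest and the lowest GC class. *Sox2*, at 2057 bases, is among the shorter. The run differences of *Sox2*, *Sox8*, *Sox9*, *Nfic* and *Nfix* lie below the median of every class. A median does not show how far single genes of a class spread, so no conclusion is drawn from this. The summed level of 8 bipolar cell markers, all of them detected, was 3082, 8266, 4258 and 6764 FPKM, higher in run B, and most of it was *Pcp2* at 2071, 6515, 2727 and 4846 FPKM. By genotype, 7 of these 8 markers were higher in *Rax* iCKO with 0 called, a median difference of 0.34 and 3 above both controls, against 15.4% of all genes tested, among them *Trpm1*, the channel of ON bipolar cells, at 178, 213, 293 and 327 FPKM. That of 8 endothelial and pericyte markers was 492, 241, 410 and 255 FPKM, higher in run A, and most of it was *Kdr*, a vascular endothelial growth factor receptor, while 6 of the 8 had a mean under 1 FPKM and *Tek* and *Cdh5*, which define endothelium, stayed at or under 0.149 FPKM. The part of these features in the members' run differences was not tested.

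**Figure D4:**
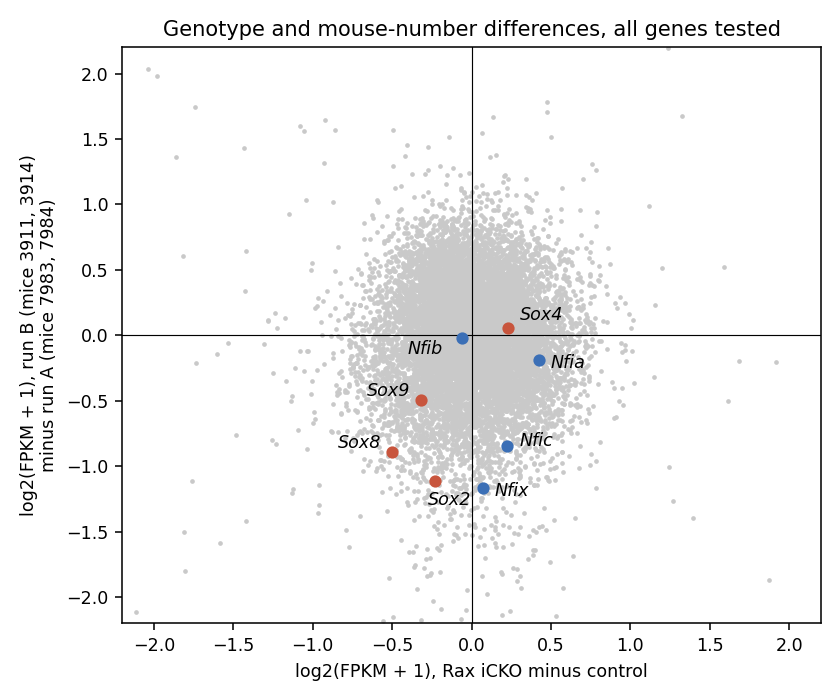
For each of the 12363 genes tested (grey; 78 lie outside the axes), the difference between genotypes (x axis) against that between runs (y axis), both in log2(FPKM + 1), with the members in red (Sox) and blue (NFI). *Nfix*, *Sox2*, *Sox8* and *Nfic* lie at or below -0.85 on the y axis, while on the x axis no member is farther from 0 than *Sox8* at -0.50.

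Of the 14 other Sox genes with a value, 4 reached a mean of 1 FPKM, and 3 of these were higher and 1 lower in *Rax* iCKO, with 0 called. They were *Sox5*, *Sox6* and *Sox13*, the SoxD genes, and *Sox12*, a further SoxC gene. *Sox6*, which with *Sox5* modulates the action of SoxE proteins on shared targets, was at 10.6, 9.13, 13.7 and 19.2 FPKM. Both *Rax* iCKO libraries were above both controls, with a difference of 0.67 on the log2 scale (SE 0.26, 95% interval 0.05 to 1.30, adjusted p = 0.9999 by limma). *Sox12* was at 3.10, 1.40, 3.85 and 2.10 FPKM, high in run A like *Sox2* and unlike *Sox4*. *Sox5* and *Sox13* were under 5 FPKM in each library, and 9 of the 14 were under 0.5 FPKM in all 4. *Sox10*, the third SoxE gene and a marker of oligodendrocytes and neural crest glia, was listed at 0 in all 4 libraries.

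Glial genes linked to SOX9 or NFI in other tissues were lower in *Rax* iCKO in 9 of 12 cases and higher in 3, with 0 called, a median difference of -0.20 against -0.00 over all genes, and 1 gene below both controls, against 14.1% of all genes tested. That gene was *Aldh1l1*, a folate enzyme of astrocytes, at 44.2, 30.5, 22.4 and 20.9 FPKM (difference -0.74, SE 0.25, log2 scale). *Glul*, the glutamine synthetase that Müller glial cells use to clear glutamate, was at 1702, 1121, 1002 and 1197 FPKM and overlapped between the genotypes. Among genes that NFIA and SOX9 regulate together in the spinal cord, *Apcdd1*, an inhibitor of Wnt signalling, was at 22.9, 9.90, 19.9 and 8.38 FPKM, *Mmd2* was at 398, 197, 232 and 175 FPKM, and *Zcchc24* was at 21.2, 11.3, 16.4 and 12.3 FPKM. All 3 had both run A libraries above both of run B and overlapped between the genotypes. Over the 12 genes of the list, 6 had this pattern, against 26.8% of all genes tested. The reverse was seen in 3, against 3594 of the 12363 genes tested. These 3 were *Gfap* at 4.80, 8.94, 4.38 and 7.14 FPKM, *Fabp7* at 7.14, 15.2, 6.99 and 16.7 FPKM and *S100b* at 2.53, 3.91, 1.89 and 3.23 FPKM. The 6 genes named for their run pattern were chosen after their values were seen. Within both runs the *Rax* iCKO value was the smaller for 7 of the 12 and the larger for 1, against 31.7% and 30.7% of all genes tested.

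Of 8 neuronal genes linked to SOX4 or SOX11, 5 were tested, 2 higher and 3 lower in *Rax* iCKO with 0 called and a median difference of -0.38. In this list 1 gene lay below both controls and 1 above both, against 14.1% and 15.4% of all genes tested. The former was *Tead2*, a Hippo pathway factor, at 15.2, 8.94, 6.50 and 7.77 FPKM (difference -0.65, SE 0.31, log2 scale), and the latter *Map2*, a microtubule protein of dendrites, at 22.2, 24.98, 26.9 and 25.99 FPKM (difference 0.16, SE 0.20). *Tubb3*, the neuronal tubulin with the highest level of the list, was at 23.3, 30.8, 29.1 and 32.6 FPKM. *Dcx* and *Elavl3*, genes of young neurons, stayed under 0.5 FPKM in each library, as *Sox11* did, and *Pou4f1* was listed at 0.

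The other retinal progenitor and glial transcription factors, 18 genes including *Rax*, were lower in *Rax* iCKO in 16 cases, with 0 called, a median difference of -0.31, and 9 genes below both controls against 14.1% of all genes tested. *Hopx*, a small homeodomain protein of glia and stem cells, was at 269.6, 259, 149 and 177 FPKM (difference -0.70, SE 0.23, log2 scale). *Hes1*, a Notch effector, was at 137, 131, 106 and 82.4 FPKM (difference -0.51, SE 0.23), and *Id2*, an inhibitor of basic helix-loop-helix factors, was at 355, 321, 251 and 222 FPKM (difference -0.51, SE 0.24). Set beside these, the members were split evenly, with 4 higher and 4 lower.

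The sorted cells carried the markers of Müller glia at high levels, *Rlbp1* at 2616, 2159, 1292 and 1560 FPKM and *Apoe* at 5041, 4232, 3901 and 4193 FPKM, together with those of bipolar cells given above. Rod markers summed to 1365 and 1342 FPKM in control and to 912 and 792 FPKM in *Rax* iCKO, with all 8 lower, 0 called, 7 of them below both controls (14.1% of all genes tested) and none near 0, and cone markers to 157, 199, 143 and 200 FPKM. Amacrine and horizontal cell markers, whose cells can also hold *Sox2* and *Nfia*, summed to between 5.22 and 11.2 FPKM with 5 of the 10 under 0.5 FPKM in each library. Ganglion cell markers summed to between 6.38 and 15.4 FPKM with 4 of the 8 under 0.5 FPKM. Markers of retinal astrocytes, which hold *Sox2*, *Sox9* and NFI transcripts, summed to 57.1 and 48.5 FPKM in control and to 33.1 FPKM in each *Rax* iCKO library, most of it the *Aldh1l1* given above, and *Pax2*, their defining gene, was at 0 or near it in all 4. Microglial markers summed to between 17.4 and 86.6 FPKM, pigment epithelium markers to between 3.08 and 9.55 FPKM, and markers of dividing progenitors to 21.8 and 16.9 FPKM in control and 10.7 and 9.48 FPKM in *Rax* iCKO, most of it *Ccnd1*. The part of these cell types in the members' values was not tested.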

How the data were processed

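Retinal cells positive for mTFP were sorted by FACS from 2 control and 2 *Rax* iCKO mice. The authors mapped 101-base single-end reads to mm10, and the deposited values are FPKM, 1 for each gene in each library. The processing notes name TopHat2 2.1.1, Bowtie2 2.2.8, SAMtools 0.1.18 and Cuffdiff 2.2.1. The labels and the study's methods name different RNA isolation kits, and the strand used in counting is not given in the sources used here. FPKM were used as deposited. The genotype contrast was fitted on log2(FPKM + 1) with limma (version 3.58.1, R 4.3.3, trended eBayes) for 12363 genes whose FPKM averaged 1 or more, and p-values were adjusted by Benjamini-Hochberg with calls at 0.05. The fit was also run on simulated data that had no difference between runs and shifts larger than that of any member. That run therefore does not show how the fit performs on differences as small as those reported here. FPKM carry no read counts, so the depth was estimated from 388 low genes with 1 transcript and up to 12 reads, after each transcript was shortened by 200 bases. Read numbers are estimates, except that *Sox11* gave whole numbers. Members and gene lists were chosen with earlier results of these data known. Besides members and *Rax*, list genes were named when the genotypes did not overlap and the log2 difference was at least 0.5 in size, when highest in their list, when tested Sox genes, or when overlapping a member. Genes outside this rule were chosen after their values were seen. A list gene is not reported here.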

Additional observations from a re-analysis of the deposited data

How the results depend on the processing

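The alternatives were equal medians or quantiles, no trend in the variance, a pseudocount of 0.1, no filter, a filter at a mean FPKM of 5, a replicate block by run of mouse numbers, and each mouse left out in turn. No member was called in any of them. At an unadjusted p under 0.05 there were 0 members as reported, 3 with the block (*Sox8*, *Sox9* and *Nfia*), *Nfia* without control 1 and *Sox8* without control 2. Genes called higher numbered 1 and lower 2 as reported, 0 and 0 without a filter or with the filter at 5, 2 higher with quantile normalization and 3 with equal medians. Left-out mice gave 7 to 14 higher and 5 to 12 lower, in fits where the lone mouse of a genotype is assumed to vary like the other 2. With the replicate block, 24 were higher and 47 lower, and *Rax* was called (-0.82, adjusted p = 0.0223 by limma), while the smallest adjusted p of a member was 0.116 for *Sox8*. Deviations of libraries of a run correlated at 0.503 across 12363 genes, but the labels do not pair them. Members not overlapping between genotypes were 2 higher and 0 lower, and with left-out mice 2 to 4 higher (4 without control 1, against 35.0% of all genes) and 0 to 6 lower (6 without control 2, 3 without *Rax* iCKO 1 and 1 without *Rax* iCKO 2, against 33.3%, 29.1% and 31.3%). By direction within both runs 3 were lower. The difference changed sign for *Sox2* (-0.84 to 0.38) without control 1 or *Rax* iCKO 2, for *Nfib* (-0.17 to 0.051) without control 1 or *Rax* iCKO 1, and for *Nfic* (-0.34 to 0.79) and *Nfix* (-0.61 to 0.75) without control 2 or *Rax* iCKO 1. The cause was not tested. The interval of *Nfix* was -1.21 to 1.34 as reported and -0.30 to 0.44 with the block, where the intervals of *Sox8* (-0.80 to -0.20), *Sox9* (-0.62 to -0.013) and *Nfia* (0.051 to 0.80) lay on 1 side of 0.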
